A study of Mus musculus with 8 samples.

Results

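Fatty acid oxidation is described here through 40 genes whose products join fatty acids to coenzyme A, carry them into mitochondria and break them down there or in peroxisomes. Each gene was found by matching its NCBI Gene ID to the rows of the tables, and all 40 were found among the 38920 rows of each library. By the compartment in which their products are known to work, 22 were counted as mitochondrial, 13 as peroxisomal and 5 as acyl-CoA synthetases, which sit on several membranes. Of the 40, Acad10, Acad11, Crat, Ech1 and Eci2 have been placed in both organelles.

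Epithelial cells were sorted from stomachs of C57BL/6 mice, and 8 libraries of total RNA without ribosomal RNA were sequenced. A high fat diet was given to the mice of 4 libraries (HFD; libraries HFD22, HFD23, HFD26 and HFD27), and the mice of the other 4 are labelled as controls (ND; libraries ND15.17.18, ND16, ND19 and ND20). No allele, agent or other treatment is labelled in either group. The age of the mice is not given in the sources used here, nor is their sex, what the diets held, how long they were fed, the gate of the sort or the number of mice behind a library. The title of ND15.17.18 lists 3 numbers, so it may be a pool, and the p-values measure the spread between these libraries.

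A fatty acid enters oxidation as its coenzyme A ester. Long chains cross the inner mitochondrial membrane as carnitine esters, and each round of beta oxidation then removes an acetyl-CoA through a dehydrogenase, a hydratase, another dehydrogenase and a thiolase, while electrons pass to the respiratory chain. Peroxisomes shorten very long and branched chains in the same order of steps but begin with an oxidase that makes hydrogen peroxide. In the stomach the acid-secreting parietal cells are packed with mitochondria, and in the liver many genes of both pathways respond to the receptor PPARα during fasting.

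The promoters of 2 gene pairs are shown because the results return to these pairs. Hadha and Hadhb, which encode the subunits of the mitochondrial trifunctional protein, start back to back on chromosome 5. Their windows, from 250 bases before the RefSeq start to 50 bases after it in GRCm38.p6, share 228 bases, which are in capitals and are read from opposite strands. The windows are chr5:30154931-30155230 on the minus strand for Hadha and chr5:30155003-30155302 on the plus strand for Hadhb.
Hadha: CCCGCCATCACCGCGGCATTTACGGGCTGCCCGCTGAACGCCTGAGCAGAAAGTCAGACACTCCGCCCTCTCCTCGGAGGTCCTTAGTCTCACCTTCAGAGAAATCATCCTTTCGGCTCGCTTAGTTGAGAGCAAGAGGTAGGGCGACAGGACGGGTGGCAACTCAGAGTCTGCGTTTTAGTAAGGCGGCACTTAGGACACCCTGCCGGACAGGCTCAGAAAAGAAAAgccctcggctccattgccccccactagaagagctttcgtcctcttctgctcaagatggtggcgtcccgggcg
Hadhb: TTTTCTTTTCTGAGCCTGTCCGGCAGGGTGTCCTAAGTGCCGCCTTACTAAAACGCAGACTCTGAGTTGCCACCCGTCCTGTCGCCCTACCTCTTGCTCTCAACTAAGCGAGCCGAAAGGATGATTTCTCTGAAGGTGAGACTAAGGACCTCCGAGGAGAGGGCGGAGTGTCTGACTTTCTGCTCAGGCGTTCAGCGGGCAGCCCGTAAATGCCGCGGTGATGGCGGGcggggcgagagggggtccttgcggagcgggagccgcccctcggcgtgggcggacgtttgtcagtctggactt
Acaa1a and Acaa1b encode peroxisomal thiolases that are close copies of each other in the mouse. Their windows are chr9:119341044-119341343 on the plus strand for Acaa1a and chr9:119157044-119157343 on the minus strand for Acaa1b. The annotated Acaa1a gene begins at 119341028, so its window lies inside the gene. Capitals mark each CCAAT on either strand, 4 in each window, of which a pair overlaps in Acaa1b.
Acaa1a: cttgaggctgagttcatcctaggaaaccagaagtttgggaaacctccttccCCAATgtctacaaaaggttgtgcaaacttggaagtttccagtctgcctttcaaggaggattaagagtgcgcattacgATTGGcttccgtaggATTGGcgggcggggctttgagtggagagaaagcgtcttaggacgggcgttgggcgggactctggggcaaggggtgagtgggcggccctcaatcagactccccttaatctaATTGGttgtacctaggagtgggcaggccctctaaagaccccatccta
Acaa1b: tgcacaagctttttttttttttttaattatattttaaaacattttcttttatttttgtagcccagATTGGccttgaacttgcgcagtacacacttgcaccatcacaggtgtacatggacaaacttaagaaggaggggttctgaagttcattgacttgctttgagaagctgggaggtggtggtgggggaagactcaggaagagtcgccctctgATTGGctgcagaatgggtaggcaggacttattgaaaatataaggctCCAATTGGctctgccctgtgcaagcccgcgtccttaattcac

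A RefSeq window was at hand for 34 of the 40 genes. GGGCGG, the core of the GC box, was present on either strand in 26 of the 34 windows (76.5%), against 38.2% of all 27025 genes with a window. CCAAT was in 17 of the 34 (50%), against 41.1% of all windows, with 8 of 12 among peroxisomal and 5 of 17 among mitochondrial genes. TATAAA was in 0 of the 34 windows, against 15.7% of all. AGGTCA repeated after 1 free base, a direct repeat bound by PPARα with its partner, and the looser repeat of AGGNCA at the same spacing were in none of the 34, against 0.0481% and 0.451% of all windows. At shares this small most sets of 34 windows hold no match, so this does not show that PPARα sites are absent. GCGCA and GCGC with 1 free base between them, letters recognised by NRF1, were in the windows of Acad10, Etfb and Etfdh and in 5.19% of all windows. TCAAGGTCA, which contains the AGGTCA of the repeat, was in that of Acsl6 and in 0.466% of all. The shares over all windows include genes of any level in these libraries. No comparison was made with genes read at levels like those of the 40. These matches describe letters in the windows and were not tested.

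The RNA was that of gastric epithelium. The mean log2 level of 6 general epithelial genes was 14.30 to 14.60 in HFD and 14.32 to 14.59 in ND libraries, and that of 7 parietal genes was 11.29 to 11.88 in HFD and 11.23 to 11.87 in ND libraries. Of the general epithelial genes, Epcam was at 12.44 to 12.71 in HFD and 11.60 to 12.25 in ND libraries. Cdh1 went the other way, with 14.48 to 14.77 in HFD and 14.90 to 15.33 in ND libraries. The groups of the rest of the list overlapped, and none of its genes was called. Estimated depth was 31.4 to 46.0 M reads in HFD and 16.4 to 63.2 M reads in ND libraries. ND15.17.18 stood apart, with 85.7% of its total in 20 rows, and HFD23 was the library least like the others, with rank correlations of 0.845 to 0.896, against 0.910 to 0.980 for the pairs without it. Markers of smooth muscle separated the diets: the mean log2 level of 8 of them was 8.40 to 8.92 in HFD and 5.83 to 7.92 in ND libraries. All 8 differences were above 0, none was called, and Lmod1 was listed at 0 in ND15.17.18. Other marker lists differed the same way with ranges of their means that overlap between the diets: the median difference was 2.08 for forestomach squamous genes (5 of 6 above 0), 0.86 for chief cell genes (5 of 5), 0.73 for striated muscle genes (6 of 6) and 0.65 for endothelial genes (4 of 4), beside 1.95 for smooth muscle. Within the chief list Cblif did not overlap, with 14.70 to 15.39 in HFD and 12.49 to 14.07 in ND libraries. Nor did Cckar, with 11.42 to 12.10 in HFD and 10.20 to 11.08 in ND libraries. Bhlha15 was likewise apart, with 9.72 to 10.32 in HFD and 8.82 to 9.49 in ND libraries, whereas Pgc and Chia1 overlapped. None of these genes was called. The part of these cells' RNA in the differences below was not tested. In bulk RNA, fewer cells of a type and less RNA per cell cannot be told apart.

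No gene of the 40 passed the test between the diets. On log2 values scaled by median ratio, limma with Benjamini-Hochberg adjustment called 0 of the 40 at an adjusted p of 0.05 in either direction, and 3 of the 27401 rows tested (0.0109%). Limma gave 4 genes an unadjusted p under 0.05 with the higher level in HFD, namely Acaa2, Ech1, Crot and Acadl, and 0 genes with the lower level, against 6.43% and 4.09% of all rows. Without its trend and robust options limma gave 1 and 0 genes, against 6.07% and 2.86% of all rows. All 4 HFD libraries lay above all 4 ND libraries for 0 of the 40 genes (4.72% of all rows) and below them for 1, Acsl3 (3.12% of all rows). With 40 genes, none of these counts stands clear of the share over all rows.

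Of the 40 differences 28 were above 0 (70%), with a median of 0.15 on the log2 scale, against 59.9% and a median of 0.12 over all rows tested. They ran from -0.33 for Acsl3 to 0.74 for Acsl6. How far the genes stood from all rows depended on the setting. After quantile normalization 77.5% of the genes were above 0 with a median of 0.17, against 51.3% and 0.01 over all rows. Among rows above 30 in all libraries 67.6% of 37 genes were above 0 with a median of 0.14, against 51.7% and 0.01 over all such rows. With array quality weights 62.5% of the genes were above 0 with a median of 0.05, against 64.0% and 0.15 over all rows. On the deposited scale, where the median row is 0.90 higher in HFD, all 40 differences were above 0, from 0.53 to 1.57, so the 12 below 0 after median-ratio scaling changed sign with the scale. On that scale ND15.17.18 stood far below the rest. The median deviation of the 40 genes from their means over the 8 libraries was -2.55 in ND15.17.18. It was 0.30, 0.47, 0.63 and 0.51 in HFD and 0.79, -0.41 and 0.24 in ND16, ND19 and ND20.

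The median of the 40 depended on single ND libraries. Without ND15.17.18, 20 genes (50%) were above 0 with a median of -0.0038, against 55.9% and 0.06 over all rows, and without ND16, 37 genes (92.5%) with a median of 0.21, against 59.4% and 0.11. Of the 28 genes above 0, 9 were below 0 without ND15.17.18, namely Cpt1b, Acadvl, Acox3, Hadha, Hadhb, Echs1, Acaa1a, Etfa and Etfdh. For 11 more the difference was smaller by over 1.5 times, namely Acsl1, Cpt2, Slc25a20, Acadm, Acadl, Acad9, Hadh, Hsd17b4, Decr1, Eci1 and Pex11a. The genes with an unadjusted limma p under 0.05 and the higher level in HFD numbered 1 without HFD26 or without HFD27. They numbered 2 without ND15.17.18, 5 without ND16 and 4 without any other single library. Over all rows that share was 5.17% without HFD26, 5.02% without HFD27, 4.56% without ND15.17.18 and 6.42% without ND16. It was 4.41% to 8.36% without any other single library. The genes with the lower level numbered 1 without ND19, without ND20 and with array quality weights. Over all rows that share was 4.92%, 4.99% and 4.51%. With 40 genes, none of these counts stands clear of the share over all rows. The genes above all ND libraries numbered 3 without HFD23 or without ND16, where 7.38% and 7.83% of all rows did the same, so 3 of 40 is near that share.

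**Figure D1:**
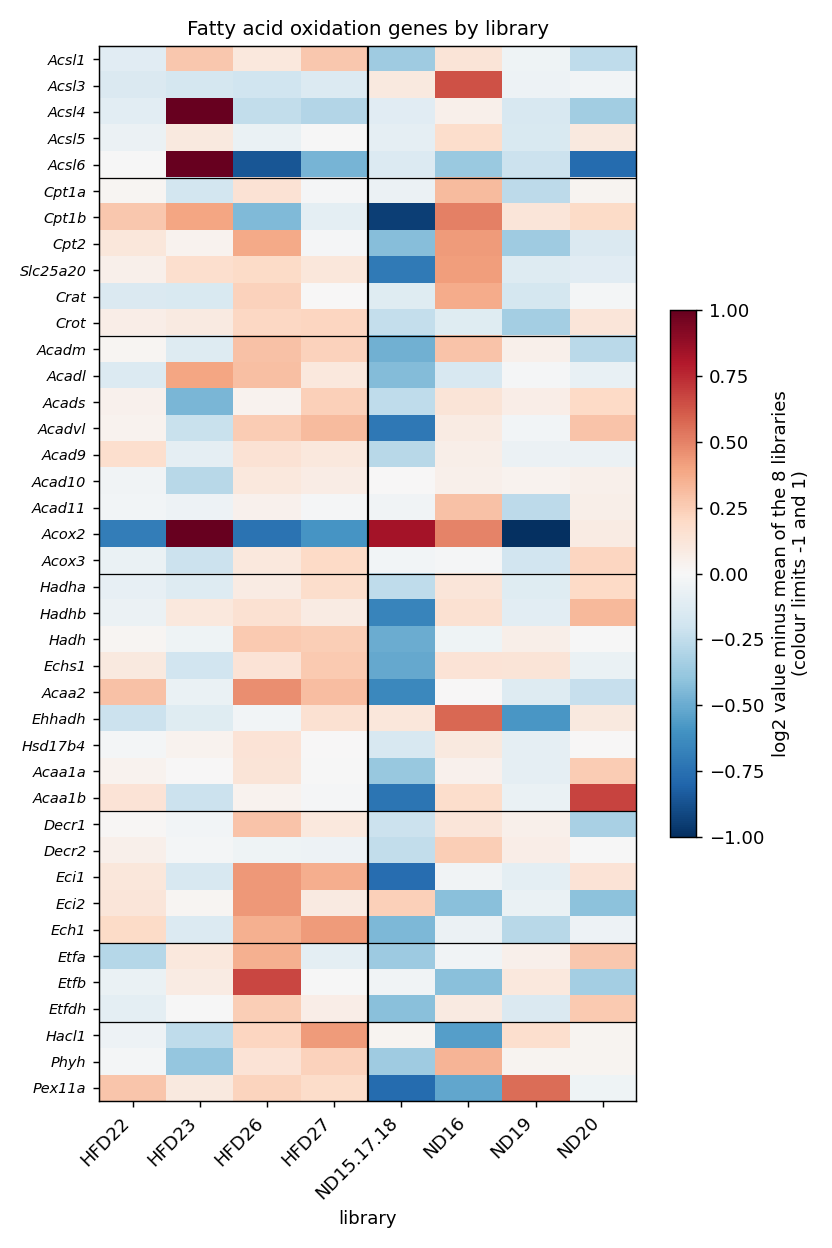
Each row is a gene, grouped by role with lines between the groups, and each column a library, HFD at the left and ND at the right of the vertical line. Colour is the log2 value minus the gene's mean over the 8 libraries, limited at -1 and 1. Most of the rows show no block of colour by diet; ND15.17.18 is lower for many mitochondrial genes, and HFD23 is far higher for Acsl4, Acsl6 and Acox2.

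**Figure D2:**
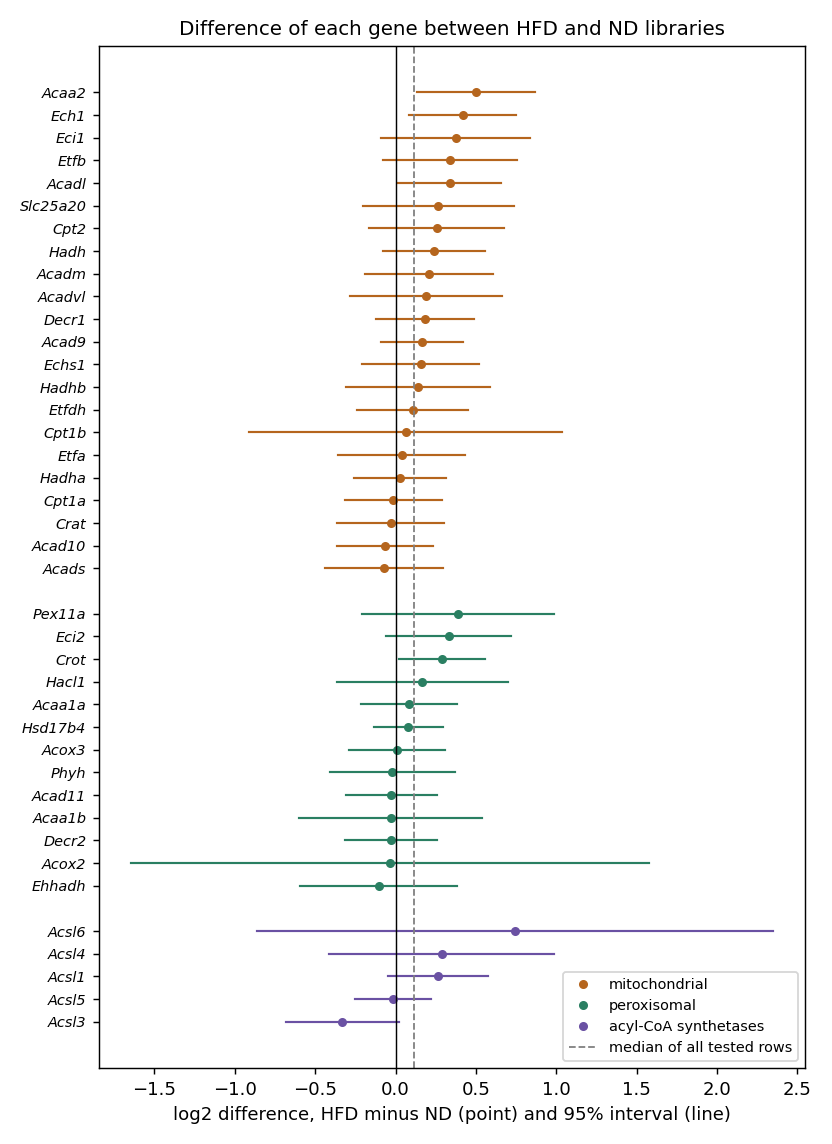
Points are log2 differences, HFD minus ND, after median-ratio scaling, and lines are 95% intervals from the limma fit, with 22 mitochondrial, 13 peroxisomal and 5 acyl-CoA synthetase genes in separate blocks. The dashed line is the median of all rows tested, 0.12. The intervals of Acaa2, Ech1, Crot and Acadl lie above 0 and those of the other genes cross it, and no gene passed the adjusted threshold. The 12 points below 0 lie above 0 on the deposited scale.

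Long chain acyl-CoA synthetases perform the activating step, and 4 of the 5 were read at log2 levels between 9.16 and 12.15. Acsl1, the main synthetase of liver and fat, had 11.51, 11.89, 11.73 and 11.90 in the HFD libraries, in the order given above, and 11.27, 11.75, 11.58 and 11.37 in the ND libraries. The groups overlapped, with HFD22 below ND16 and ND19. The difference was 0.26 ± 0.14 (SE, log2; limma adjusted p = 0.527, unadjusted 0.0854), and 0.16 without ND15.17.18.

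Acsl3, a synthetase of the endoplasmic reticulum and lipid droplets (chromosome 1, 78657825 to 78707743, mm10), was the gene of the 40 whose groups did not overlap. Its log2 levels were 9.87, 9.84, 9.82 and 9.88 in HFD and 10.12, 10.66, 9.97 and 9.99 in ND libraries. The HFD libraries were nearly equal and lay below every ND library, and ND16 was the highest of ND. The difference was -0.33 ± 0.16 (SE, log2; limma adjusted p = 0.497, unadjusted 0.0631) and became 0.53 on the deposited scale. Without ND16 it was -0.18.

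The other synthetases differed by less than their spread. Acsl4, which prefers arachidonic acid, was at 9.22 to 9.41 in HFD22, HFD26 and HFD27 and at 10.73 in HFD23, against 9.16 to 9.56 in ND libraries. Acsl6, a synthetase best known from brain, was at 5.15 to 6.01 in the same 3 HFD libraries and at 8.83 in HFD23, against 5.25 to 5.87 in ND libraries. The difference of Acsl6 was 0.74 ± 0.72 (SE, log2) with HFD23 and -0.07 without it. Acsl5, abundant in intestinal epithelium, had log2 levels of 11.91 to 12.07 in HFD and 11.82 to 12.15 in ND libraries and differed by -0.01 ± 0.11.

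No gene of the carnitine shuttle passed the test. Cpt1a, the liver form of carnitine palmitoyltransferase 1 and the gate of mitochondrial oxidation (chromosome 19, 3322326 to 3385735, mm10), had log2 levels of 12.53, 12.33, 12.65 and 12.50 in HFD and 12.45, 12.83, 12.25 and 12.54 in ND libraries. The 4 HFD values lay inside the range of the ND values. The difference of -0.01 ± 0.13 (SE, log2) has a 95% interval of -0.32 to 0.29 (limma adjusted p = 0.978), and was 0.85 on the deposited scale.

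Cpt2, which returns acyl groups to coenzyme A on the inner membrane, had log2 levels of 10.87, 10.79, 11.13 and 10.75 in HFD and 10.33, 11.18, 10.40 and 10.61 in ND libraries. ND16 was the highest of all 8 and ND15.17.18 and ND19 the lowest, so the groups overlapped. Slc25a20, the carnitine-acylcarnitine carrier between them, had 9.28, 9.40, 9.42 and 9.34 in HFD and 8.52, 9.65, 9.10 and 9.12 in ND libraries, with ND16 highest and ND15.17.18 lowest. The differences were 0.26 ± 0.19 for Cpt2 and 0.26 ± 0.21 for Slc25a20 (SE, log2; limma adjusted p = 0.639 and 0.66). Cpt2 differed by 0.13 without ND15.17.18 and 0.43 without ND16, and Slc25a20 by 0.04 and 0.44.

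Crot, the carnitine octanoyltransferase that lets shortened chains leave peroxisomes (chromosome 5, 8966033 to 8997146, mm10), was the peroxisomal gene with the smallest p. It had log2 levels of 11.01, 11.03, 11.15 and 11.15 in HFD and 10.70, 10.82, 10.60 and 11.06 in ND libraries. ND20 reached into the HFD range, and the other ND libraries lay below it. The difference was 0.29 ± 0.12 (SE, log2; 1.22-fold; limma adjusted p = 0.439, unadjusted 0.0363). Crat, carnitine acetyltransferase, differed by -0.03 ± 0.15, with 10.39 to 10.77 in HFD and 10.37 to 10.92 in ND libraries. Cpt1b, the muscle form of the gate enzyme, was at 5.01 to 5.85 in HFD and 4.51 to 5.95 in ND libraries. Cpt1b shares 78.6% of its stretches of 50 bases with other annotated genes, mostly with the read-through gene Gm44502, which was listed at 0 in all 8 libraries.

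Acyl-CoA dehydrogenases take the first step in mitochondria, each for its own chain length. Acadl, the long chain enzyme (chromosome 1, 66830839 to 66863309, mm10), had log2 levels of 11.76, 12.28, 12.19 and 11.999 in HFD and 11.46, 11.73, 11.88 and 11.82 in ND libraries. The other 3 HFD libraries were above every ND library, whereas HFD22 lay within the ND range. The difference was 0.34 ± 0.14 (SE, log2; 1.26-fold; limma adjusted p = 0.452, unadjusted 0.0414), and 0.22 without ND15.17.18.

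Acadm, the medium chain enzyme, had log2 levels of 10.42, 10.28, 10.70 and 10.64 in HFD and 9.92, 10.69, 10.46 and 10.13 in ND libraries. Acadvl, the very long chain enzyme of the inner membrane, had 11.98, 11.73, 12.20 and 12.26 in HFD and 11.23, 12.03, 11.92 and 12.23 in ND libraries. For both genes ND15.17.18 was the lowest library and the other ND libraries overlapped the HFD libraries. The differences were 0.21 ± 0.18 for Acadm and 0.19 ± 0.21 for Acadvl (SE, log2; limma adjusted p = 0.683 and 0.752), and without ND15.17.18 they were 0.05 and -0.05. Acadvl shares 26.9% of its stretches of 50 bases with other genes, mostly with its overlapping neighbour Dvl2, and the sources used here do not say whether reads were counted by strand.

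The groups overlapped for the remaining dehydrogenases and the oxidases. Acads, the short chain enzyme, differed by -0.07 ± 0.16 and Acad9, which also helps to assemble respiratory complex I, by 0.16 ± 0.11 (SE, log2). For Acad9 3 of the 4 HFD libraries lay above every ND library, and the difference was 0.07 without ND15.17.18. Acad10 and Acad11, which act on hydroxylated and other less common chains, differed by -0.07 ± 0.13 and -0.03 ± 0.13. Acox3, a peroxisomal oxidase of branched chains, differed by 0.01 ± 0.13, with 9.75 to 10.17 in HFD and 9.78 to 10.18 in ND libraries. Acox2, the oxidase of branched chains and bile acid precursors, was the gene that varied most within ND, from 6.55 to 8.72. In HFD it was at 7.15 to 7.30 in HFD22, HFD26 and HFD27 and at 9.85 in HFD23, and its difference was -0.03 ± 0.70.

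The subunits of the trifunctional protein, which holds hydratase, dehydrogenase and thiolase activity for long chains, overlapped between the diets. Hadha, the subunit with the hydratase and dehydrogenase (chromosome 5, 30119423 to 30154980, mm10), had log2 levels of 13.03, 12.98, 13.19 and 13.29 in HFD and 12.86, 13.23, 12.99 and 13.31 in ND libraries. Hadhb, the thiolase subunit (chromosome 5, 30155253 to 30184593, mm10), had 9.39, 9.55, 9.59 and 9.53 in HFD and 8.78, 9.59, 9.34 and 9.77 in ND libraries. The groups overlapped for both genes, and ND15.17.18 was the lowest library for both. The differences were 0.03 ± 0.13 for Hadha and 0.14 ± 0.20 for Hadhb (SE, log2; limma adjusted p = 0.948 and 0.807), and -0.08 for each without ND15.17.18.

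Acaa2, the thiolase that ends each round of mitochondrial oxidation for medium and short chains, had the smallest p of the 40. Its log2 levels were 12.40, 12.04, 12.58 and 12.42 in HFD and 11.46, 12.11, 11.98 and 11.88 in ND libraries. HFD22, HFD26 and HFD27 stood above every ND library, while HFD23 lay between ND16 and the other ND libraries. The difference was 0.50 ± 0.16 (SE, log2; 1.42-fold; 95% interval 0.14 to 0.87; limma adjusted p = 0.329, unadjusted 0.0124), larger than that of 73.6% of the rows tested. Without ND15.17.18 it was 0.34. Hadh, the dehydrogenase of short chains, differed by 0.24 ± 0.14 and Echs1, the short chain hydratase, by 0.16 ± 0.16 (SE, log2), and without ND15.17.18 by 0.09 and -0.02.

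The peroxisomal enzymes of the same steps differed by -0.10 to 0.08. Ehhadh, the bifunctional enzyme of straight chains and a known PPARα target in mouse liver (chromosome 16, 21761285 to 21787834, mm10), had log2 levels of 9.85, 9.94, 10.04 and 10.22 in HFD and 10.18, 10.64, 9.49 and 10.16 in ND libraries. The ND libraries spread on both sides of the HFD libraries. Its difference was -0.10 ± 0.22 (SE, log2; limma adjusted p = 0.875), and 0.75 on the deposited scale. Hsd17b4, the bifunctional enzyme of branched chains, differed by 0.08 ± 0.09, with 12.37 to 12.53 in HFD and 12.23 to 12.49 in ND libraries.

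Acaa1a had log2 levels of 12.15, 12.11, 12.24 and 12.11 in HFD and 11.74, 12.16, 12.03 and 12.37 in ND libraries. Acaa1b had 10.48, 10.13, 10.38 and 10.34 in HFD and 9.62, 10.52, 10.28 and 11.02 in ND libraries. For both thiolases ND15.17.18 was the lowest and ND20 the highest of the 8 libraries, and the HFD libraries lay between them. The differences were 0.08 ± 0.13 for Acaa1a and -0.03 ± 0.25 for Acaa1b (SE, log2). The copies share 17.1% of the stretches of 50 bases of Acaa1a and 39.6% of those of Acaa1b with other genes, mostly with each other, so reads may be split between them.

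Auxiliary enzymes prepare unsaturated chains for beta oxidation. Ech1, which shifts the double bonds of dienoyl-CoA (chromosome 7, 28825338 to 28832239, mm10), had log2 levels of 12.14, 11.81, 12.30 and 12.38 in HFD and 11.50, 11.89, 11.67 and 11.89 in ND libraries. HFD22, HFD26 and HFD27 were above every ND library, and HFD23 lay within the ND range, as it did for Acaa2. The difference was 0.42 ± 0.15 (SE, log2; 1.34-fold; limma adjusted p = 0.367, unadjusted 0.0187), and 0.31 without ND15.17.18.

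Eci2, an enoyl-CoA isomerase found in both organelles, had log2 levels of 9.69, 9.58, 9.995 and 9.66 in HFD and 9.80, 9.14, 9.50 and 9.16 in ND libraries. ND15.17.18 stood within the HFD range, and the other 3 ND libraries were below every HFD library. Its difference was 0.33 ± 0.17 (SE, log2; limma adjusted p = 0.529, unadjusted 0.087), and 11.1% of its stretches of 50 bases are shared, mostly with Eci3. Eci1, the mitochondrial isomerase, differed by 0.37 ± 0.21, and by 0.15 without ND15.17.18. The dienoyl-CoA reductases differed by 0.18 ± 0.14 for mitochondrial Decr1 and -0.03 ± 0.13 for peroxisomal Decr2.

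Electron transfer flavoprotein collects electrons from the dehydrogenases and hands them to the ubiquinone pool. Etfb, its beta subunit (chromosome 7, 43444072 to 43457800, mm10), had log2 levels of 11.20, 11.35, 11.94 and 11.26 in HFD and 11.23, 10.85, 11.37 and 10.93 in ND libraries. HFD26 was the highest library, and the other 3 HFD libraries overlapped ND15.17.18 and ND19. Etfdh, the oxidoreductase that passes the electrons on, had 10.71, 10.80, 11.05 and 10.87 in HFD and 10.39, 10.89, 10.66 and 11.06 in ND libraries, again with ND15.17.18 lowest. The differences were 0.34 ± 0.19 for Etfb, 0.11 ± 0.16 for Etfdh and 0.04 ± 0.18 for the alpha subunit Etfa (SE, log2; limma adjusted p = 0.543, 0.814 and 0.945). Etfb shares 44.8% of its stretches of 50 bases with other genes, mostly with Gm45233.

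Alpha oxidation removes a single carbon from branched chains such as phytanic acid, and Pex11a helps peroxisomes to divide. Pex11a, a PPARα target in rodent liver (chromosome 7, 79735957 to 79743131, mm10), had log2 levels of 8.42, 8.23, 8.36 and 8.32 in HFD and 7.36, 7.62, 8.69 and 8.09 in ND libraries. The HFD libraries were tightly grouped, 3 ND libraries were below them and ND19 above them. The difference was 0.39 ± 0.27 (SE, log2; limma adjusted p = 0.618), and was 0.17 without ND15.17.18 and 0.64 without ND19. Phyh, the hydroxylase of phytanic acid, differed by -0.02 ± 0.17, with 11.80 to 12.42 in HFD and 11.83 to 12.52 in ND libraries. Hacl1, the lyase of the next step, differed by 0.17 ± 0.24 (0.0066 without ND16), and 30.1% of its stretches of 50 bases are shared with other genes.

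Mitochondrial genes had a higher median difference than peroxisomal genes, and the gap was smaller without ND15.17.18. Of the 22 mitochondrial differences 18 were above 0, with a median of 0.17 on the log2 scale. Of the 13 peroxisomal differences 7 were above 0, with a median of 0.01, and of the 5 synthetases 3, with a median of 0.26. The median row of the whole table stood at 0.12, with 59.9% of all rows above 0, and no test of the medians was made. With the genes placed in both organelles left out, the medians were 0.18 over 19 mitochondrial and 0.01 over 11 peroxisomal genes. Without ND15.17.18 the mitochondrial median was 0.01 and the peroxisomal -0.03, so the gap of 0.16 between them became 0.04. Without both HFD23 and ND15.17.18 the mitochondrial median was 0.073 and the peroxisomal -0.036. With array quality weights on all 8 libraries they were 0.110 and 0.006.

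The same gap was read in each library. The median deviation of mitochondrial genes from their mean over the 8 libraries, minus that of peroxisomal genes, was 0.04, -0.05, 0.12 and 0.02 in HFD and -0.27, 0.01, 0.04 and -0.07 in ND libraries on the log2 scale. ND15.17.18 stood alone at -0.27, and the other 7 libraries overlapped between the diets. Relative to their means, mitochondrial genes deviated by 0.02, -0.08, 0.25 and 0.11 in HFD and by -0.43, 0.11, -0.04 and -0.01 in ND libraries.

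Divided by transcript length, the genes spanned a wide range of levels. The highest mean log2 levels per kb of transcript over the 8 libraries were those of Phyh at 11.66, Ech1 at 11.61, Acaa2 at 11.51, Echs1 at 11.48, Etfb at 11.43, Hadh at 11.37 and Acaa1a at 11.30. The ranges of these 7 genes over the libraries overlap, so their order is not resolved. The lowest were Cpt1b at 3.92, Acsl6 at 4.64, Hacl1 at 6.02 and Acox2 at 6.35. Of the gate enzyme's forms, Cpt1a stood at 10.40 per kb, from 10.14 to 10.72, and Cpt1b at 2.97 to 4.42. Of the synthetases, Acsl5 at 9.89 and Acsl1 at 9.66 were the highest per kb, with ranges that overlap, followed by Acsl3 at 8.04. Hadha stood at 11.10 per kb, from 10.85 to 11.30, and Hadhb at 8.41, from 7.75 to 8.73, so the 2 subunits with a shared promoter stretch were read at levels that did not overlap. Hadhb shares 19.7% of its stretches of 50 bases with other genes, mostly with Gm13910; the part of this in its lower level was not tested.

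**Figure D3:**
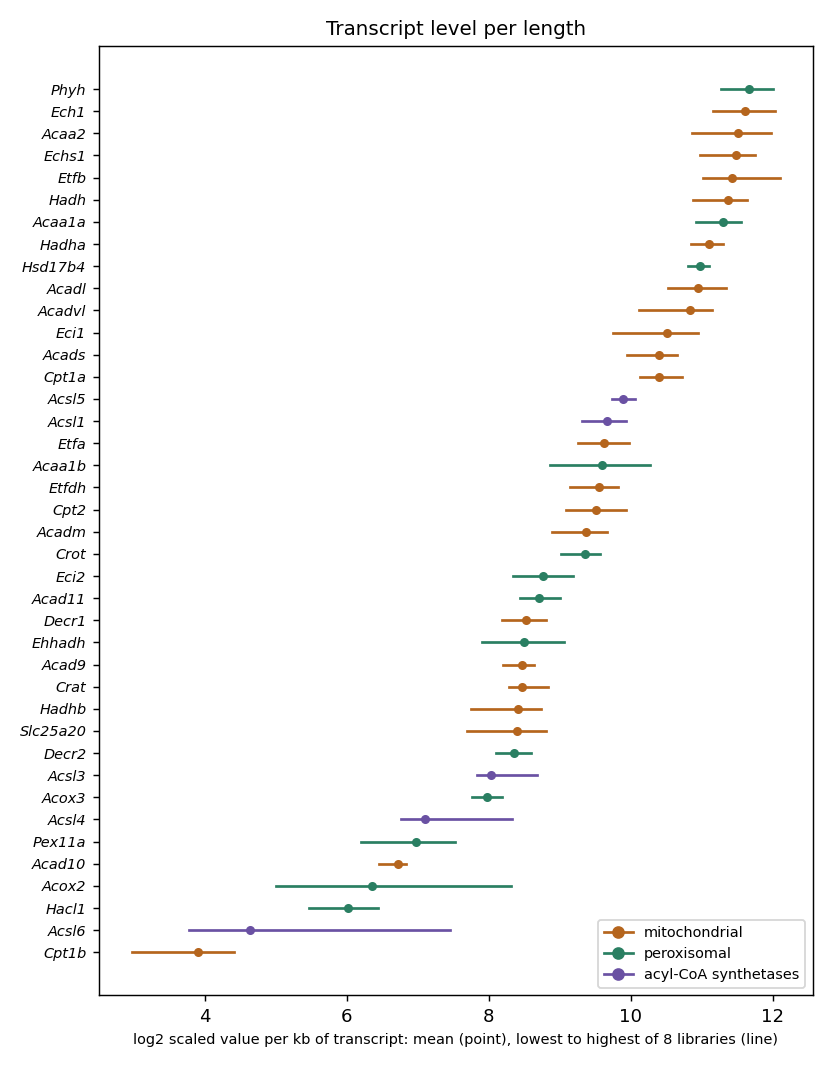
Points are mean log2 scaled values per kb of transcript over the 8 libraries, and lines run from the lowest to the highest library, with genes sorted from high to low and coloured as mitochondrial, peroxisomal or acyl-CoA synthetase. Phyh leads at 11.66 and Cpt1b is last at 3.92; Hadha lies at 11.10 and its partner Hadhb at 8.41.

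Ratios between genes within a library hardly depend on the scaling, and 12 pairs were compared. None of the 12 ratios separated the diets. With 70 divisions of the libraries the smallest p an exact two-sided permutation test can give is 0.0286, and the smallest obtained was 0.0857, for Acaa1a over Acaa2 and for Acsl1 over Acsl5 (adjusted over the 12, 0.514). Log2 Acaa1a over Acaa2, the peroxisomal against the mitochondrial thiolase, was -0.26, 0.07, -0.33 and -0.31 in HFD and 0.27, 0.04, 0.04 and 0.49 in ND libraries. HFD23 alone lay in the ND range, and the difference was -0.42. Log2 Acsl1 over Acsl5 was -0.40, -0.18, -0.18 and -0.08 in HFD and -0.61, -0.40, -0.24 and -0.70 in ND libraries, a difference of 0.28 with overlapping groups.

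Log2 Hadha over Hadhb, the trifunctional subunits, not divided by length, ran from 3.43 to 4.08 over the 8 libraries, a ratio of 10.8 to 16.9 with ND15.17.18 the highest, and differed by -0.12 between the diets (exact permutation p = 0.543). Log2 Ehhadh over Hadha, a peroxisomal against a mitochondrial bifunctional subunit, averaged -3.11 ± 0.07 in HFD and -2.98 ± 0.42 in ND libraries (SD, n = 4 each; exact permutation p = 0.457). Log2 Cpt1a over Cpt1b ran from 6.48 to 7.95, and log2 Acaa1a over Acaa1b from 1.35 to 2.12. Over the other 6 pairs the exact p ran from 0.143 to 0.943.

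**Figure D4:**
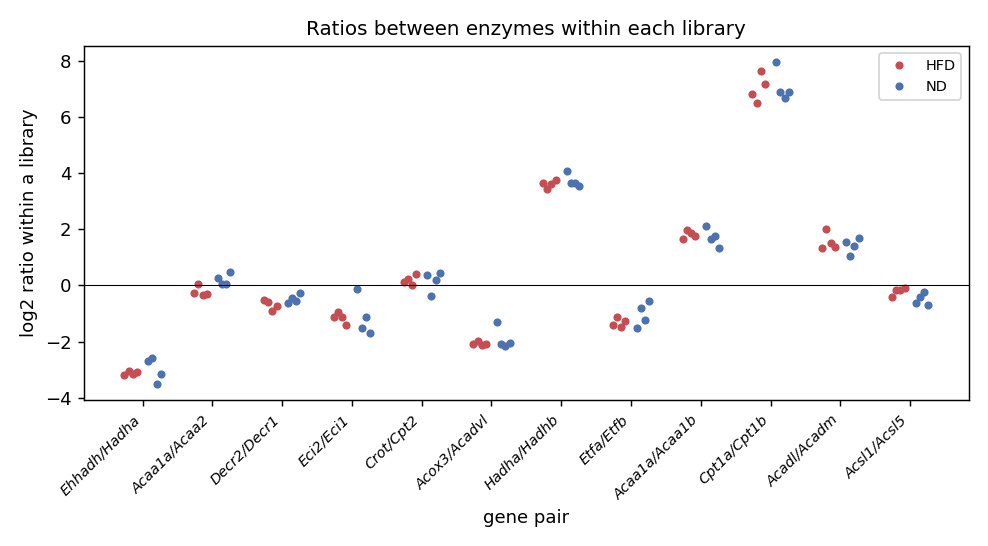
Each point is the log2 ratio of 2 genes in a library, for 12 pairs along the axis, with HFD points left of ND points in each pair. The groups overlap in all 12 pairs. The widest spread within a group is that of ND for Eci2 over Eci1, from -1.68 to -0.14.

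No gene listed for carnitine supply or for control of carnitine palmitoyltransferase 1 passed the test. Of 11 listed genes 10 were tested, with 4 differences above 0, a median of -0.12 and 0 called. Over all rows 59.9% were above 0, with a median of 0.12. Limma gave 1 of the 10 an unadjusted p under 0.05 in each direction. Over all rows that share was 6.43% for the higher and 4.09% for the lower level in HFD. For 1 of the 10 all HFD libraries lay above all ND libraries, against 4.72% of all rows. With 10 genes, none of these counts stands clear of the share over all rows. On the deposited scale all 10 differences were above 0. Mlycd, the decarboxylase that removes malonyl-CoA, the inhibitor of carnitine palmitoyltransferase 1 (chromosome 8, 119394852 to 119421838, mm10), had log2 levels of 10.21, 10.07, 10.29 and 9.97 in HFD and 9.79, 9.82, 9.89 and 9.72 in ND libraries. The groups did not overlap, and the difference was 0.33 ± 0.11 (SE, log2; limma adjusted p = 0.345, unadjusted 0.0145). On the deposited scale its groups overlapped, with a difference of 1.19. Acacb, the carboxylase that makes malonyl-CoA at the mitochondrial membrane (chromosome 5, 114146321 to 114250761, mm10), had 12.47, 12.21, 12.48 and 12.65 in HFD and 13.13, 13.10, 12.59 and 12.99 in ND libraries. HFD27 lay just above ND19 and the other HFD libraries below every ND library. Its difference was -0.50 ± 0.14 (SE, log2; limma adjusted p = 0.285, unadjusted 0.0064), and 0.36 on the deposited scale, where its sign was the opposite.

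**Figure D5:**
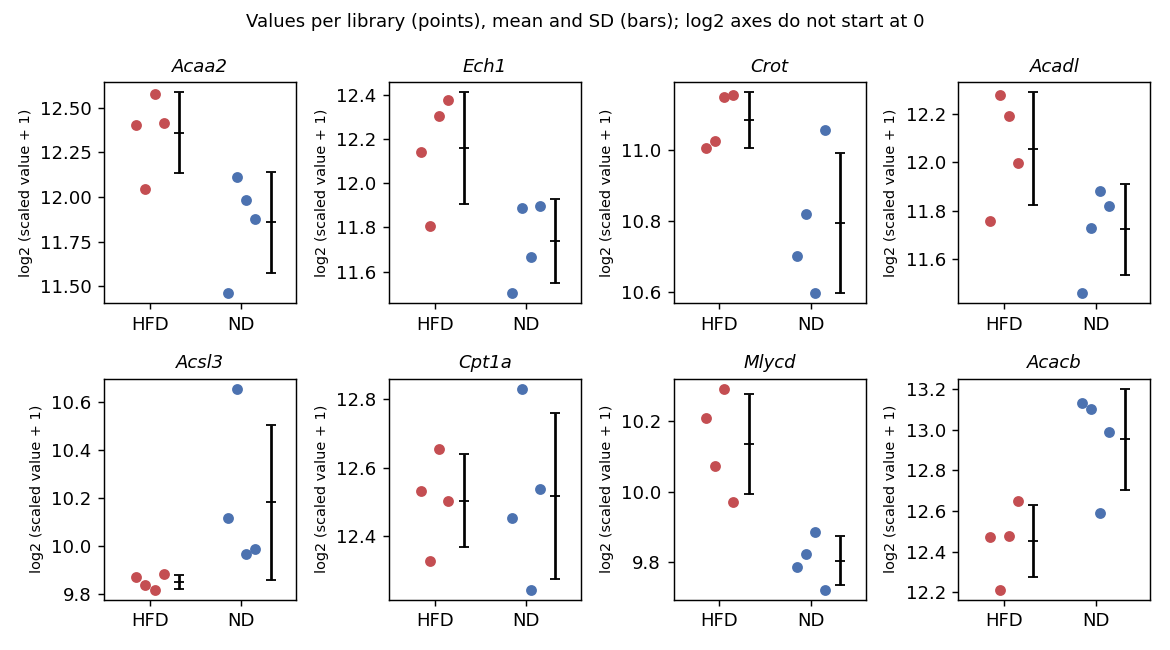
Points are log2(scaled value + 1) in each library, HFD left of ND, with the mean and SD beside each group, for 8 genes on separate log2 axes that do not start at 0. Mlycd has every HFD library above every ND library and Acsl3 every HFD library below; on the deposited scale the groups of Mlycd overlap and Acsl3 and Acacb change sign; the groups overlap for Acaa2, Ech1, Crot, Acadl, Cpt1a and Acacb. None of the 8 genes passed the test in limma.

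Peroxisomes as organelles gave no gene past the test. Limma gave 0 of 14 biogenesis genes and 1 of 12 genes of peroxisomal transport and lipid metabolism an unadjusted p under 0.05. Over all rows that share was 6.43% for the higher and 4.09% for the lower level in HFD. Of the 14 biogenesis differences 11 were above 0, with a median of 0.15, against 59.9% and 0.12 over all rows. Pex7, the import receptor of proteins such as the thiolases and Phyh, had log2 levels of 9.89, 9.57, 9.66 and 9.93 in HFD and 8.93, 9.62, 9.50 and 9.52 in ND libraries. The groups overlapped, with ND15.17.18 far below the rest, and the difference was 0.37 ± 0.17 (SE, log2; limma adjusted p = 0.49) and 0.19 without that library. Pex13, a membrane protein of the docking complex, had 8.07, 8.12, 8.19 and 8.02 in HFD and 7.96, 8.83, 8.44 and 8.76 in ND libraries. The HFD libraries were tightly grouped, with 3 ND libraries above them and ND15.17.18 below. The difference of -0.40 ± 0.20 (SE, log2; limma adjusted p = 0.521) was 0.45 on the deposited scale, and -0.61 without ND15.17.18. Pex10, a membrane protein of the import machinery, was at 11.47 in HFD23 and at 7.40 to 7.94 in the other 7 libraries. Of the 12 transport and lipid differences 7 were above 0, with a median of 0.14, near the share and median over all rows. The smallest p there was that of Slc27a2, a fatty acid transporter and very long chain acyl-CoA synthetase, with 7.49, 7.33, 6.77 and 7.05 in HFD and 6.37, 6.17, 7.15 and 6.09 in ND libraries. ND19 lay within the HFD range, and the difference was 0.72 ± 0.30 (SE, log2; limma adjusted p = 0.452). Abcd3, a carrier of acyl-CoA into peroxisomes, had 11.72, 11.33, 11.45 and 11.69 in HFD and 12.82, 12.03, 11.52 and 11.94 in ND libraries, with ND15.17.18 far above the rest and a difference of -0.53 ± 0.24 (SE, log2), 0.33 on the deposited scale and -0.31 without ND15.17.18.

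The acyl-CoA dehydrogenases of amino acid breakdown were read as a comparison for those of fatty acids. Of 4 genes 3 differences were above 0, with a median of 0.12, 0 called and 0 with an unadjusted limma p under 0.05. Over all rows 59.9% were above 0, with a median of 0.12. All HFD libraries lay above all ND libraries for 1 of the 4, against 4.72% of all rows. Gcdh, of lysine and tryptophan breakdown, had log2 levels of 10.02, 9.72, 9.96 and 9.94 in HFD and 8.85, 9.71, 9.67 and 9.72 in ND libraries. The groups did not overlap, though HFD23 stood level with ND20 and ND16, and ND15.17.18 was far below the rest. The difference was 0.42 ± 0.20 (SE, log2; limma adjusted p = 0.494), and 0.18 without ND15.17.18. The groups overlapped on the deposited scale, after quantile normalization, and without HFD22, HFD26 or ND15.17.18.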

How the data were processed

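Total RNA of sorted cells was freed of ribosomal RNA and sequenced with the Ion Total RNA-Seq kit, per the labels' protocols. Each library has a deposited table of 38920 rows with a column of values whose unit no source used here states. The deposited values were read as log2 because their antilogs reach a common total (36.9 M) in each library. They are floored at 0 and were taken as not divided by gene length. The submitters' processing notes name mm10 and bedtools 2.17.0. The aligner is not given in the sources used here, nor is the annotation or the way of normalizing. Values were not whole reads (23.9% to 34.7% whole multiples of the step of a read, within 0.01), so no count model was fitted and depth was estimated from the step.

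Linear values were divided by a median-ratio factor over 11115 rows above 30 in all 8 libraries. Rows with at least 1 in at least 4 libraries, 27401 in all, were fitted as log2(value + 1) with limma 3.58.1 (trend and robust, R 4.3.3), group as the single term, with Benjamini-Hochberg adjustment over all of them and a threshold of 0.05. The pseudocount understates the change of low genes. Ratios were compared by exact two-sided permutation over 70 divisions of the libraries. Levels per kb use the longest principal transcript of GENCODE for GRCm38, the assembly of mm10, counted from 1, and shared sequence is the share of stretches of 50 bases found in another gene.

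The genes, lists and settings were chosen with earlier results of these data known. Values per library are given for the 8 genes with the smallest p, for genes whose groups did not overlap and for 15 genes listed by name; of each further list, for called or non-overlapping genes, otherwise for the 2 with the smallest p. Pex10 and Acacb were named beyond this rule after their values had been seen. Tmlhe is not analysed here, and some genes of the further lists are not reported here. Other settings tried were the deposited scale, quantile normalization, other filters and another pseudocount, limma without trend and robust options, array quality weights and leaving out libraries.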

Additional observations from a re-analysis of the deposited data

Results flagged for a closer look

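Among 80 groups of 4 libraries, 2 values stood further from the rest of their group than Dixon's 95% critical value allows, where chance gives about 1 in 20. Acsl4 was at a log2 level of 10.73 in HFD23, against 9.22 to 9.41 in the other 3 HFD libraries. Acox2 was at 9.85 in HFD23, against 7.15 to 7.30 in the other 3. Both values belong to HFD23, the library with the lowest rank correlations to the others.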

How the results depend on the processing

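No paired analysis was possible because the groups share no replicate number. The count of called genes among the 40 was 0 in each direction under all 16 other settings run. On the deposited scale the 12 differences below 0 among the 40 turned above it: Acsl3 0.53, Acsl5 0.84, Cpt1a 0.85, Crat 0.83, Acads 0.79, Acad10 0.79, Acad11 0.83, Acox2 0.82, Ehhadh 0.75, Acaa1b 0.83, Decr2 0.83, and Phyh 0.84, as did Acacb at 0.36, Pex13 at 0.45 and Abcd3 at 0.33 outside the 40. There the genes above all ND libraries numbered 2 (7.82% of all rows) and those below them 0 (0.106%), and the mitochondrial median was 1.03 and the peroxisomal 0.87. The shift of the median row is part of that scale. On it the 40 genes deviated from their means by a median of -2.55 in ND15.17.18, against -0.41 to 0.79 in the other libraries. Acsl6 was at -0.065 without HFD23, -0.014 without both HFD23 and ND15.17.18, and -0.065 to 1.15 with a library left out. The difference of log2 Cpt1a over Cpt1b was 0.39 without both. The genes above all ND libraries numbered 0 to 3 with a library left out, against 5.56% to 9.36% of all rows, and 4 without both, against 8.76%. The mitochondrial minus peroxisomal median was 0.038 to 0.21 with a library left out. The causes were not tested. The number of libraries and the lack of whole reads limit the precision.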

Other observations

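Markers of other cells were read in the same libraries as mean log2 levels. Chief cell genes were at 14.75 to 15.59 in HFD and 13.63 to 14.80 in ND libraries, pit cell genes at 16.63 to 17.33 in HFD and 16.77 to 17.79 in ND libraries, and neck cell genes at 15.22 to 16.17 in HFD and 15.01 to 15.97 in ND libraries. Striated muscle genes were at 3.99 to 4.96 in HFD and 2.54 to 4.34 in ND libraries, adipocyte genes at 1.56 to 2.95 in HFD and 1.95 to 3.36 in ND libraries, and leukocyte genes at 3.13 to 4.28 in HFD and 2.56 to 3.72 in ND libraries. Endothelial genes were at 7.74 to 8.35 in HFD and 6.82 to 8.60 in ND libraries, and forestomach squamous genes at 6.66 to 7.54 in HFD and 4.37 to 6.91 in ND libraries. The 5 brown fat and liver genes were at 7.16 to 7.62 in HFD and 6.61 to 7.41 in ND libraries, with Ucp1 listed at 0 in HFD23. The 8 intestinal epithelial genes, chosen after the data had been seen, were at 4.72 to 6.00 in HFD and 4.08 to 5.43 in ND libraries, with Cdx1, Slc26a3 and Sis listed at 0 in 1 or more libraries. These ranges of list means overlap between the diets, though those of single genes did not always. Muc5ac of the pit list was at 15.80 to 16.19 in HFD and 16.71 to 18.54 in ND libraries, and the other pit genes overlapped. Alpi of the intestinal list was at 6.58 to 7.18 in HFD and 5.32 to 6.55 in ND libraries. The median difference was -0.12 for pit, -0.08 for neck, -0.35 for adipocyte, 0.53 for leukocyte, 0.58 for brown fat and liver and 0.69 for intestinal genes.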
